A study of Chelonus formosanus with 6 samples.

Results

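Cytosolic ribosomal proteins and translation factors were examined in heads of Chelonus formosanus, a parasitoid wasp of the family Braconidae. A unigene, the representative transcript of a cluster in a de novo assembly, was included when its annotation named a 40S, 60S or 60S acidic ribosomal protein, elongation factor 1 or 2, or a eukaryotic translation initiation factor, and when its best protein hit came from an insect. The rule found 117 of the 41986 unigenes, carrying 113 protein names from 30 insect species, most often the braconid wasp Microplitis demolitor with 36 unigenes. A further 147 unigenes matched the words with a best hit outside the insects and were kept apart. The members comprised 31 unigenes for 40S proteins, 41 for 60S proteins, 2 for acidic P proteins, 6 for elongation factors and 32 for initiation factors. Roles were set by name, so both unigenes of elongation factor 1 epsilon-1, described below, were kept with the elongation factors. The other 5 unigenes matched the words but were set apart by name from the cytosolic ribosomal proteins and the factors. They were mitochondrial 40S S12, the kinases PEK and eIF2-alpha kinase 1, 4E-binding protein 1 and a transcription elongation factor 1 homolog.

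The study measured poly(A) RNA of day 1 heads in 3 female and 3 male libraries, with no treatment and no further genotype or strain named in the labels. Whether each library of a sex is a different animal or pool is not stated in the labels; the p-values below thus reflect only how much these samples vary, and that variation may be technical. The stated purpose of the series was the choice of reference genes for quantitative PCR, in tissues, at temperatures and after insecticides that are not represented in these 6 libraries.

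The ribosome consists of a small 40S and a large 60S subunit, each built from ribosomal RNA and a set of proteins that are needed in near equal numbers. Initiation factors bring the 40S subunit and the initiator tRNA to a messenger RNA, and elongation factors then deliver the following tRNAs and move the ribosome along. Ribosomal protein genes are expressed in nearly all cells, for which reason they, and elongation factor 1-alpha, are often used as reference genes in insects.

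Each library held between 17937367 and 19517856 expected counts. Levels are given as CPM, counts relative to the library total after TMM scaling, and levels of different genes are compared only as TPM, which is also scaled by length. The tissue label was set against marker genes: summed opsin CPM ranged from 7664.1 to 8339.0 in the female and from 7263.2 to 8493.6 in the male libraries, while hexamerin, a fat body storage protein, stayed between 1.79 and 3.42. Vitellogenin, a yolk protein made in the fat body, was not low, at 2845.8 to 3124.5 CPM in females and 2519.3 to 3341.5 in males. The ranges of 5 of the 13 markers did not overlap between the sexes. Those of opsin, hexamerin, vitellogenin, synaptotagmin, synaptobrevin, synapsin and the names with testis or chorion overlapped. For comparison, 17.3% of all unigenes tested, taken singly and not summed, had ranges without overlap. Of the muscle markers, summed myosin heavy chain was 7181.4 to 10875.7 CPM in females and 11293.0 to 13472.5 in males, and troponin 5181.8 to 6826.1 in females and 6971.9 to 7800.2 in males. The odorant receptor coreceptor was 334.1 to 396.5 in females and 157.5 to 158.1 in males. Arrestin, which quenches signalling in photoreceptors, was 8054.4 to 9155.8 CPM in females and 9449.9 to 9784.9 in males. The neuronal marker elav was 55.8 to 57.9 in females and 39.9 to 52.9 in males, but the other neuronal markers overlapped. Synaptotagmin was 965.7 to 1013.0 CPM in females and 895.9 to 972.7 in males. Synaptobrevin was 67.3 to 70.1 in females and 64.8 to 73.9 in males, and synapsin 39.8 to 54.6 and 42.0 to 55.7. In bulk heads, fewer cells of a type and less RNA per cell cannot be told apart.

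Ribosomal proteins stood high on the TPM scale, and most initiation factors lay well below them. Mean TPM had a median of 359.5 over the 40S unigenes and 411.3 over the 60S unigenes. It was 38.1 over the initiation factors. The highest 40S protein was S24, with 918.0, 852.7 and 857.8 TPM in the female and 776.4, 792.9 and 824.9 in the male libraries (837.1 ± 51.0, SD, n = 6). The highest 60S protein was L23, a protein on the side of the large subunit that meets the small one, at 1110.1 ± 50.7 TPM (SD, n = 6). Among the factors, elongation factor 1-alpha, which delivers aminoacyl-tRNA to the ribosome, reached 817.1 ± 34.8 TPM and elongation factor 2, which drives translocation, 605.2 ± 29.4 TPM (SD, n = 6). The highest initiation factor was eIF1A, which helps the 40S subunit to scan, at 206.0 TPM.

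**Figure D1:**
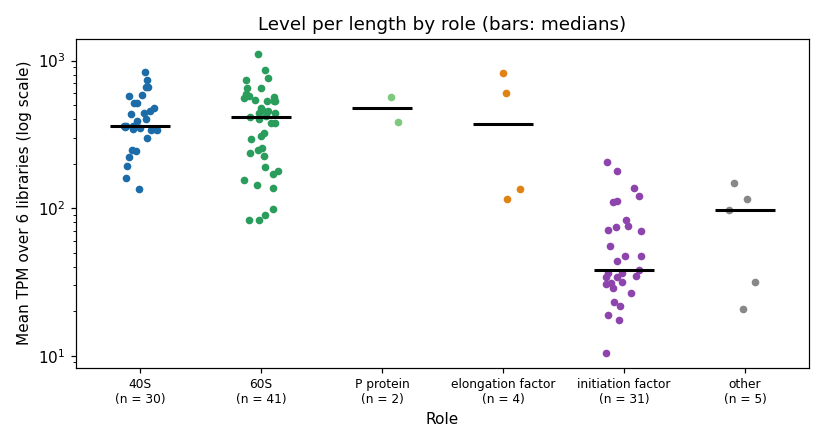
Mean TPM over the 6 libraries (log axis) of the 113 members with a mean of at least 100 counts, grouped by role, with bars at the medians. The 40S and 60S medians (359.5 and 411.3) lie well above that of the initiation factors (38.1), and the ribosomal proteins themselves spread over a 13.4-fold range.

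Although ribosomal proteins are used in near equal numbers, their unigenes did not have equal TPM. Over the 73 that could be tested, mean TPM spread 13.4-fold, from L28 as the lowest to 1110.1 for L23. The order ran with the assembled length, which went from 299 to 3488 bases: the 18 unigenes of at least 1000 bases had a median of 277.4 TPM and the 55 shorter ones a median of 439.4. Spearman's rho between length and mean TPM was -0.40 over these 73 unigenes, and between length and mean count it was 0.52. These are descriptions across genes of the same libraries, and a length also enters TPM as its divisor. That divisor was not always the unigene length used here. S18 and L27a had similar lengths, 780 and 813 bases, and similar means, 148.6 and 139.7 CPM. Their means on the TPM scale were 584.4 and 256.5. An example of a long unigene with low TPM is L5, a 60S protein that binds 5S ribosomal RNA. Its unigene was the longest, at 3488 bases, and its mean was 89.4 TPM. The unigene of elongation factor 1-alpha was 6757 bases long.

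Within the set, 4 names were carried by more than 1 unigene. S29 had a unigene with a mean of 1521.5 counts and another of 346 bases with 6.0 counts, and L23a had unigenes with 6308.5 and 586.7 counts. The L35 unigenes were close to each other, with 1196.7 and 989.0 counts. Both unigenes of elongation factor 1 epsilon-1, which in mammals belongs to the complex of tRNA synthetases, were low, at 53.7 and 32.0 counts. Without a genome it cannot be told apart whether such pairs are separate genes, alleles or fragments, and their counts may be split between them. Of the 117 members, 115 passed the filter on low counts; the short S29 unigene and an eIF4G3-like unigene with a mean of 6.5 counts did not. The ranking below used the 113 with a mean of at least 100 counts, which also leaves out both epsilon-1 unigenes.

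The members varied little between the 6 libraries. The SD of log2 CPM had a median of 0.076, against 0.145 over all 10621 unigenes with a mean of at least 100 counts and 0.129 over those with an insect hit. Counting alone would give a median SD of 0.030 for the members. The median coefficient of variation was 5.29%, and the highest library was less than 1.5-fold the lowest for 112 of the 113, with a median of 1.15-fold. Of the 113 members, 43 (38.1%) had an SD under 0.069, the 10th percentile of all unigenes with that minimum count, and 107 were below the overall median.

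High counts reduce this SD, so the members were also set beside other insect-hit unigenes of like mean count. At 2000 to 4000 counts the 44 members had a median SD of 0.067 and the 855 others 0.103, and at 4000 to 10000 counts the 22 members had 0.071 and the 464 others 0.115. At 500 to 1000 counts the medians nearly met, at 0.113 for 18 members and 0.115 for 1974 others. Over all ranges of mean count, 93 of the 113 lay under the median of the others and 15 under their 10th percentile. By definition 10% of the others lie under that percentile, so 15 of 113 is not far above this share. Without matching by count, 43 members lay under the 10th percentile of all unigenes. The members did not hold the lowest values of the transcriptome: of 3005 other insect-hit unigenes with a mean of at least 1000 counts, 73 had a smaller SD than the steadiest member and 230 a smaller SD than the member ranked 10th.

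**Figure D2:**
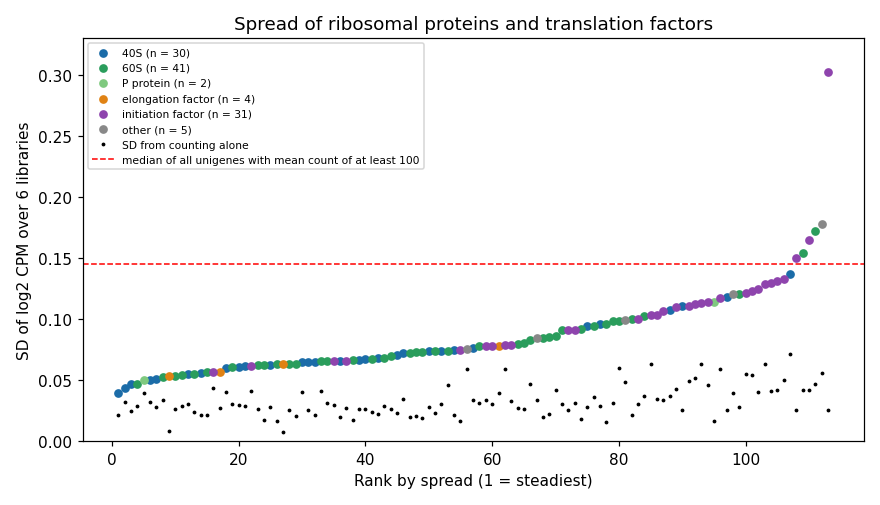
SD of log2 CPM over the 6 libraries against rank for the 113 ranked members, coloured by role, with the SD that counting alone would give (black dots) and the median of all unigenes with a mean of at least 100 counts (dashed line, 0.145). The 40S and 60S proteins fill most of the low ranks, initiation factors gather at the high ranks, and eIF4G2 stands apart at 0.302.

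By role, the median SD was 0.060 over the 4 ranked elongation factors, 0.066 over the 30 40S proteins and 0.073 over the 41 60S proteins. It was 0.110 over the 31 initiation factors, whose counts were also lower, and Spearman's rho between mean count and SD was -0.42 over the 113 members. Counting alone would give medians of 0.028 and 0.041 for the 40S proteins and the initiation factors.

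Among the 40S proteins, S8 had the smallest spread of all members, with 246.0, 249.2 and 246.7 CPM in females and 243.6, 231.5 and 248.6 in males, an SD of 0.0395 and a coefficient of variation of 2.69%. Male 2 was its lowest library, and the sexes overlapped. S12 measured 110.8, 113.8 and 108.9 CPM in females and 116.9, 109.5 and 116.0 in males (SD 0.0432). S7, which is needed for small subunit assembly, measured 178.8, 183.7 and 181.4 CPM in females and 173.2, 188.6 and 187.9 in males (SD 0.0463). The highest library was 1.07-fold the lowest for S12 and 1.09-fold for S7. S15 and S10-like also ranked among the 8 steadiest. S15 had 109.2, 115.6 and 108.3 CPM in females and 105.5, 114.5 and 110.2 in males (SD 0.0499). S10-like, at 140.9, 141.5 and 135.6 CPM in females and 145.0, 151.0 and 142.2 in males (SD 0.0510), was higher in every male than in every female library, by little (log2 difference -0.068). The widest 40S protein was S27, a zinc-finger protein, with 23.1, 23.0 and 20.8 CPM in females and 19.2, 24.8 and 23.8 in males (SD 0.137). Its mean of 417.7 counts was the lowest of the ranked members, and its male libraries held both its lowest and its highest value.

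Among the 60S proteins, L11, a partner of 5S ribosomal RNA, was the steadiest, with 130.3, 136.7 and 141.4 CPM in females and 140.4, 140.0 and 141.7 in males (SD 0.0464). Female 1 was its lowest library. L30 followed, with 96.4, 101.5 and 96.7 CPM in females and 92.3, 101.4 and 99.6 in males (SD 0.0527). L29 and L37a were the widest. L29 measured 57.2, 55.3 and 48.7 CPM in females and 44.3, 61.6 and 50.7 in males (SD 0.172), and L37a 61.6, 71.7 and 61.4 in females and 55.2, 72.5 and 68.5 in males (SD 0.154). In both, male 1 was the lowest and male 2 the highest library, so that the extremes lay within a sex.

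The P proteins form the flexible stalk of the 60S subunit that contacts the elongation factors. P1 was steady, with 69.5, 76.4 and 70 CPM in females and 71.3, 73.3 and 72.4 in males (SD 0.0497, rank 5). P0, to which P1 binds, was not among the steadier members, with 431.5, 452.3 and 397.4 CPM in females and 491.8, 427.4 and 479.1 in males (SD 0.114, rank 95). The sexes overlapped for both.

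Elongation factor 2 ranked 9th, with 1686.1, 1662.1 and 1545.4 CPM in females and 1595.0, 1696.2 and 1669.9 in males (SD 0.0528). Elongation factor 1-alpha ranked 27th, with 2025.6, 1959.0 and 1872.2 CPM in females and 1928.9, 2104.7 and 2057.4 in males (SD 0.0629). Counting alone would give SDs of only 0.0083 and 0.0075 for these highly counted genes. The exchange factor elongation factor 1-beta' was the widest ranked elongation factor, with 69.4, 75.4 and 76.1 CPM in females and 68.1, 77.2 and 76.1 in males (SD 0.0781). Its first library was the lowest in each sex.

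The steadiest initiation factor was subunit C of eIF3, the large complex that holds the 40S subunit to the messenger RNA. It measured 60.5, 58.7 and 56.3 CPM in females and 62.6, 61.3 and 61.7 in males (SD 0.0565, rank 16). The SDs of the 13 eIF3 unigenes ran from 0.0565 for subunit C to 0.165 for subunit A. Of the other proteins, mitochondrial S12 was the steadiest, with 33.1, 30.9 and 30.7 CPM in females and 30.8, 35.1 and 32.4 in males (SD 0.0756). The widest was eIF2-alpha kinase 1, a kinase that in mammals slows initiation when heme is short, with 35.2, 38.5 and 40.5 CPM in females and 30.3, 33.5 and 41.9 in males (SD 0.178). Its lowest and highest values were both male.

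Some of the spread was shared. Measured from each unigene's own mean, the median member deviated by -0.023, 0.022 and -0.043 on the log2 scale in female 1, 2 and 3 and by -0.062, 0.048 and 0.055 in male 1, 2 and 3. Only 24 of the 113 were above their own mean in male 1, whereas 97 were above it in male 3. Of all 10621 unigenes with a mean of at least 100 counts, 5135 were above it in male 1 and 5838 in male 3. Of the 60S proteins, 7 of 41 were above their mean in male 1 and 35 and 37 in male 2 and male 3. Of the initiation factors, 5 of 31 were above it in male 1 and 19 and 26 in male 2 and male 3. Over all 10621 unigenes the same medians lay between -0.014 and 0.027. When the members' median deviation was subtracted in each library, the median SD went from 0.076 to 0.063, and 84 of the 113 members became steadier. For the 60S proteins it went from 0.073 to 0.057, with 34 of 41 smaller, and for the 40S proteins from 0.066 to 0.061, with 22 of 30 smaller. The subtracted shift was taken from these same members, so a fall in their SD is partly built in. Other unigenes were not treated in this way for comparison.

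**Figure D3:**
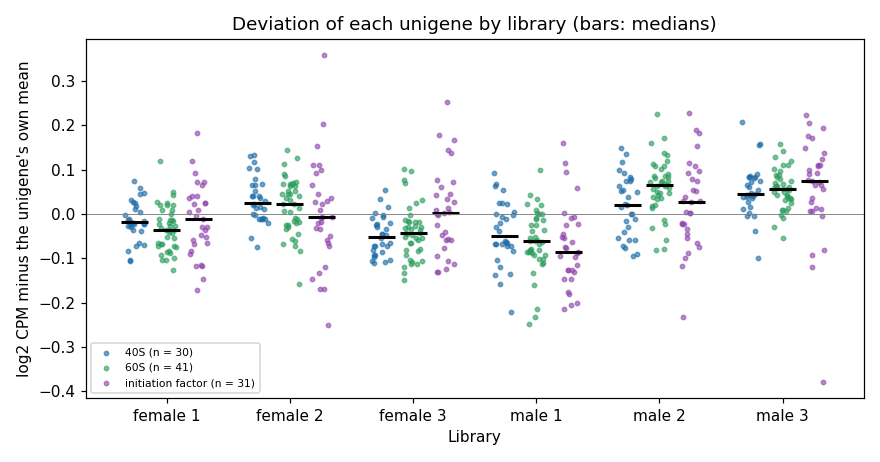
Deviation of log2 CPM from each unigene's own mean over the 6 libraries, by library, for 40S proteins, 60S proteins and initiation factors, with bars at the medians. The groups sit low in male 1 and high in male 3, with medians over all members of -0.062 and 0.055.

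A measure that ignores such shared shifts is the geNorm M value, the mean SD of a gene's log2 ratio to every other candidate, here the 112 other ranked members. M ran from 0.0765 for S7 to 0.330 for eIF4G2, with a median of 0.0968. After S7 came L10 at 0.0778, which ranked 38th by its own SD, and L40, made as a fusion with ubiquitin, at 0.0783. S8 had an M of 0.0986, above the median. When the member with the highest M was dropped step by step, the last pair was S11 and elongation factor 1-alpha. S11 measured 183.3, 177.7 and 166.4 CPM in females and 175.7, 189.2 and 183.9 in males, following elongation factor 1-alpha with a ratio between 0.0889 and 0.0911 in all 6 libraries (SD of the log2 ratio 0.0134). The pair was selected from all members for this closeness, and its SD is below the 0.025 that counting alone gives S11, so the value describes the selected extreme only. Their own SDs gave them only ranks 31 and 27.

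The order of the steadiest members depended on the scaling. The 10 lowest SDs shared 7 genes with those under DESeq2 size factors, 4 under TMM from insect hits, 4 under library totals and 1 on the log2 TPM scale. Leaving out 1 library kept between 4 and 8 of the 10. S7 stayed in the 20 steadiest in 13 of 14 orderings and held ranks from 1 to 22. S12 and L11 were in the 20 steadiest in 13 of 14 as well, with lowest places of 54 and 47, and S8 ranged from 1 to 62.

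The most abundant unigenes of other gene families that serve as references had SDs above the members' median of 0.076, and those of actin and the heat shock proteins lay above the SD of every ranked member. The highest actin unigene, a cytoskeletal protein, measured 1570.7, 1169.8 and 1028.4 CPM in females and 2503.2, 2730.0 and 2541.7 in males (SD 0.618). It was 2.06-fold higher in males (log2 difference -1.04 ± 0.14, SE, edgeR adjusted p 0.00204), and myosin heavy chain also had higher values in males; its part in this difference was not tested. Heat shock protein 83-like, a chaperone, measured 924.4, 1019.1 and 1636.5 CPM in females and 590.6, 829.2 and 2184.8 in males (SD 0.686), and its extremes lay within the males, 3.7-fold apart. Heat shock 70 kDa protein cognate 4 had an SD of 0.447 and tubulin beta-1 one of 0.142. Tubulin alpha-1 and tubulin beta-1 lay within the range of the members. Tubulin alpha-1 measured 1069.4, 1110.0 and 1109.4 CPM in females and 985.4, 1014.6 and 1203.8 in males (SD 0.103). In the heat shock protein 70, actin and tubulin alpha families a less abundant unigene was steadier. The lowest SD was 0.073 among 5 unigenes of the heat shock protein 70 family, 0.082 among 6 of actin and 0.093 among 3 of tubulin alpha. Among 3 of tubulin beta the lowest was the 0.142 of tubulin beta-1 itself, and the heat shock protein 90 family had only 1 unigene. Glyceraldehyde-3-phosphate dehydrogenase was not analysed here.

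**Figure D4:**
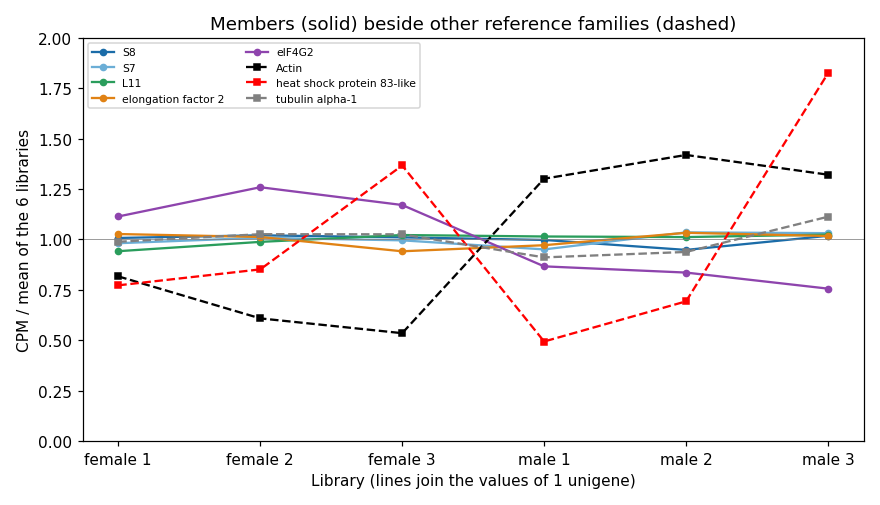
CPM in each library divided by the mean of the 6 libraries for 5 members (solid) and the most abundant actin, heat shock protein 83-like and tubulin alpha-1 unigenes (dashed). S8, S7, L11 and elongation factor 2 stay close to 1, eIF4G2 is higher in the 3 female libraries, and actin is higher in the 3 male libraries.

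Between the sexes, 1 of the 115 members tested (0.87%) passed an adjusted p of 0.05 in edgeR's quasi-likelihood test with Benjamini-Hochberg adjustment over all 21196 unigenes tested, of which 2.8% passed. It was higher in females, as were 1.69% of all unigenes, and no member was called higher in males, against 1.11% of all unigenes. At an unadjusted p under 0.05 there were 3 members (2.61%), against 12% of all unigenes. The values of the sexes did not overlap for 15 members (13%, against 17.3% of all unigenes): 2 that were higher in females (1.74%, against 8.77%) and 13 that were higher in males (11.3%, against 8.5%). The members' log2 differences ran from -0.24 to 0.67, the upper end from an epsilon-1 unigene with a mean of only 32.0 counts. In size, 4 of the 115 exceeded 0.2, against 8849 of all 21196 unigenes tested and 2993 of the 9564 with an insect hit.

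The member that passed was eIF4G2, in mammals a relative of the initiation scaffold eIF4G that lacks the binding site for the cap-binding protein eIF4E. Its unigene of 5437 bases measured 209.6, 236.9 and 220.3 CPM in females and 163.0, 157.2 and 142.2 in males. Every female library lay above every male library. The means were 222.3 ± 13.7 and 154.1 ± 10.8 CPM (SD, n = 3 each), a 1.44-fold higher level in females (log2 difference 0.53 ± 0.08, SE, edgeR adjusted p 0.00502). The authors' deposited table gave it an FDR of 0.000151 and 0.399 or more to every other member, where 3.69% of all unigenes tested were under 0.05. The call was lost only when a log2 difference of at least 1 was also required, and it held with each library left out, with log2 differences from 0.48 to 0.57. The olfactory coreceptor and elav were also higher in all female libraries. Myosin heavy chain, troponin and arrestin were higher in all male libraries, with the values given above. The other neuronal markers, synaptotagmin, synaptobrevin and synapsin, overlapped between the sexes. The part of any of these markers in the eIF4G2 difference was not tested.

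On the TPM scale, eIF4G2 measured 133.2, 149.2 and 133.9 in females and 84.9, 83.5 and 73.8 in males, a log2 difference of 0.78. Over the 10621 unigenes with a mean of at least 100 counts, the TPM scale gave a sex difference that was larger than the CPM scale by a median log2 of 0.11, and for eIF4G2 it was larger by a further 0.15. This further shift was the largest of the 113 ranked members, followed in size by -0.11 for eIF4E type 2. The eIF4G2 unigene gathered 6 assembled transcripts and that of eIF4E type 2 gathered 7. The unigene of elongation factor 1-alpha gathered 21, with a further shift of only 0.009. The reason for these shifts was not tested.

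The other initiation factors did not pass. eIF5A, which carries the modified residue hypusine and helps the ribosome through runs of proline, measured 161.0, 158.5 and 173.2 CPM in females and 199.0, 203.2 and 179.1 in males. The ranges did not overlap, and the log2 difference was -0.24 ± 0.08 (SE, edgeR adjusted p 0.198). Subunit A of eIF3 measured 64.2, 55.0 and 62.1 CPM in females and 70.9, 76.7 and 66.1 in males, again without overlap, with a log2 difference of -0.24 ± 0.09 (SE, edgeR adjusted p 0.273). The 13 eIF3 unigenes took both signs, 7 above 0 and 6, subunit A among them, below. The scaffold eIF4G1-like, a relative of eIF4G2, measured 161.8, 171.8 and 181.0 CPM in females and 187.5, 187.4 and 166.1 in males, with overlap and a log2 difference of -0.07 ± 0.08 (SE, edgeR adjusted p 0.821); it was picked for its kinship after its values were seen.

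**Figure D5:**
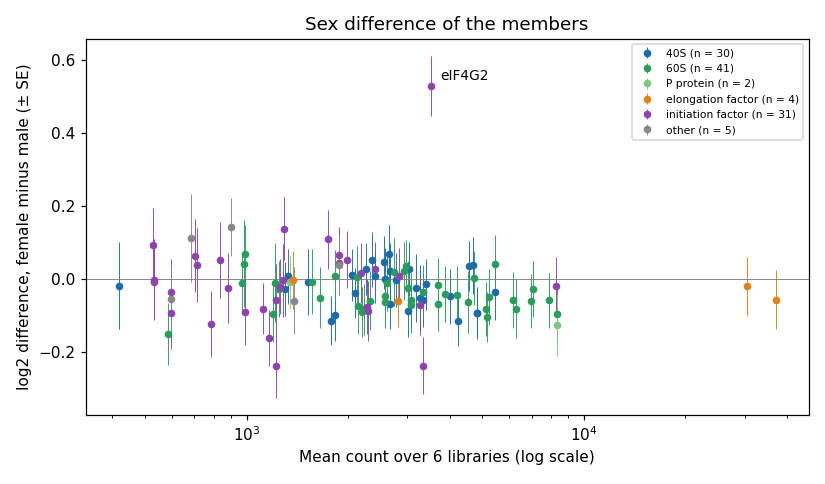
Log2 difference (female minus male) with its SE against mean count (log axis) for the 113 ranked members, coloured by role. eIF4G2 at 0.53 is the only member past the adjusted threshold, and the ribosomal proteins lie between -0.15 and 0.07.

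None of the 73 cytosolic ribosomal proteins of the 40S, 60S and P groups passed in edgeR's test, none was under an unadjusted p of 0.05, and DESeq2, which called 4.47% of all unigenes with an adjusted p, called none. Their log2 differences ran from -0.15 to 0.07. The smallest p among the 40S proteins belonged to S27a, made as a fusion with ubiquitin, with 222.0, 216.2 and 217.5 CPM in females and 242.7, 233.7 and 234.4 in males (log2 difference -0.12 ± 0.07, SE, edgeR adjusted p 0.577). All males exceeded all females, by little. Among the 60S proteins it was the smaller L23a unigene, with 30.0, 28.2 and 31.4 CPM in females and 33.7, 33.4 and 32.4 in males (log2 difference -0.15 ± 0.09, SE, edgeR adjusted p 0.564). The other L23a unigene, at 345.5, 335.3 and 308.9 CPM in females and 326.8, 372.7 and 347.4 in males, overlapped between the sexes. P0 had a log2 difference of -0.13 ± 0.09 (SE, edgeR adjusted p 0.659).

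Among the unigenes named as elongation factors, the largest difference belonged to the lower epsilon-1 unigene, with a mean of 32.0 counts. It measured 1.71, 2.43 and 2.15 CPM in females and 0.707, 1.36 and 1.88 in males (log2 difference 0.67 ± 0.34, SE, edgeR adjusted p 0.508). Male 3 fell within the female range. Elongation factor 1-alpha and elongation factor 2 had log2 differences of -0.06 ± 0.08 and -0.02 ± 0.08 (SE, edgeR adjusted p 0.875 and 0.964). The transcription elongation factor 1 homolog measured 53.1, 51.3 and 48.2 CPM in females and 43.8, 46.7 and 47.6 in males, without overlap (log2 difference 0.14 ± 0.08, SE, edgeR adjusted p 0.55). 4E-binding protein 1, which holds back eIF4E, had the highest TPM of the other proteins at 147.0.

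The set as a whole lay close to all unigenes. With TMM scaling the median log2 difference of the 115 members was -0.025, against 0.0 over all unigenes tested, with 38 members above 0 and 77 below, where 50% of all unigenes were above 0. Among the 113 ranked members, 65 were above 0 under library totals and 101 on the TPM scale. Relative to all unigenes of at least 100 counts, the ranked members' median was -0.006 with TMM scaling and -0.013 on the TPM scale. The other count scalings move all unigenes alike and so cannot change this value. The members held 1.97%, 2.0% and 1.96% of all counts in the female libraries and 1.90%, 2.01% and 1.98% in the male libraries. Male 1 was the lowest and male 2 the highest. The means of 1.98% ± 0.0227 and 1.96% ± 0.0525 (SD, n = 3 each) did not differ beyond this spread (exact two-sided permutation test, p = 0.9; the smallest p possible with 3 against 3 is 0.1). Of the counts of insect-hit unigenes, the share was 0.0535 percentage points higher in females (exact p = 0.5). Of TPM, the share was 3.48%, 3.53% and 3.46% in females and 3.25%, 3.38% and 3.34% in males, without overlap (exact p = 0.1, the smallest possible), on the scale that also gave all unigenes a median log2 difference of 0.106.

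Other genes of the translation apparatus, taken from lists of annotation words, also gave no call between the sexes in edgeR's test. This covered 68 mitochondrial ribosomal proteins, 35 tRNA ligases, 26 ribosome biogenesis proteins, 10 proteins of the signal recognition particle, 7 unigenes of S6 kinase and target of rapamycin, 6 mitochondrial elongation and initiation factors, 4 polyadenylate-binding proteins and 3 release factors. Over all unigenes tested, edgeR called 2.8%, and lists this short would hold few calls at that share. At an unadjusted p under 0.05 they held 1 mitochondrial ribosomal protein, 1 mitochondrial factor and 2 tRNA ligases. Among all unigenes tested, 12% were under this p. DESeq2, which called 4.47% of all unigenes with an adjusted p, called none in any of these lists. Their median log2 differences lay between -0.089 and 0.016. Histidine--tRNA ligase, which charges histidine tRNA, measured 58.9, 63.4 and 64.6 CPM in females and 49.9, 58.4 and 52.3 in males (log2 difference 0.22 ± 0.08, SE, edgeR adjusted p 0.294). Mitochondrial L28 of the 39S subunit measured 55.3, 52.1 and 55.8 CPM in females and 59.6, 64.4 and 60.6 in males (log2 difference -0.18 ± 0.07, SE, edgeR adjusted p 0.356). Neither pair of ranges overlapped. Median SDs in these lists ran from 0.096 for the release factors to 0.133 for ribosome biogenesis, all above the 0.069 of the cytosolic ribosomal proteins, and each list had a lower median of mean counts than the ribosomal proteins.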

How the data were processed

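Per the labels' protocols, poly(A) RNA of heads was sequenced as paired-end Illumina libraries and assembled de novo, with the longest transcript of each cluster taken as the unigene, using Trinity 2.4.0 per the submitters' processing notes. How reads were counted, unigenes annotated and the sexes tested by the authors is not given in the sources used here. Such an assembly may divide 1 gene over unigenes or merge close copies. Per the file headers, the deposited values are expected counts per unigene and library, not normalized, and TPM, which the authors computed within each library. Between 8.81% and 9.5% of the counts in a library were not whole and were rounded for testing. The authors' deposited FDR, a p-value adjusted by them, is quoted only for eIF4G2 and for the lowest of the other 116 members, and the authors' deposited unigene length served for description.

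The sexes were compared with edgeR 4.0.16 in R 4.3.3: filterByExpr at its default minimums (count 10, total 15), TMM factors, the quasi-likelihood test with sex as the only term, and Benjamini-Hochberg adjustment over the 21196 unigenes tested, with a threshold of 0.05. The biological coefficient of variation was 14.5%. The SE of a log2 difference is its size divided by the square root of F. The spread is the SD of log2 CPM, with 0.5 counts at the mean library size added, for members with a mean of at least 100 counts. On simulated counts the fit recovered 84% of 100 unigenes changed by a log2 of 1 and 100% of 100 changed by a log2 of 2, among 20418 tested. It also called 11 unigenes that had not been changed. DESeq2 1.42.0 served as an alternative, and ranks, shares and figures came from Python 3.11.15, pandas 2.3.3, scipy 1.17.1 and matplotlib 3.10.9.

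The members and all lists were chosen with earlier results of these data known. Members are named by the 8 smallest and 5 largest SDs and, in each role, by the highest TPM, the smallest and largest SD and the smallest p; any past the threshold is named too, and exceptions are marked or illustrate a sentence on length, geNorm M, TPM or repeated names. Replicate numbers occur in both sexes. Over all unigenes tested, the deviations of same-numbered libraries had correlations of -0.019, -0.07 and -0.009, so these libraries were not treated as pairs. Single genes could still move alike: heat shock protein 83-like rose in the order of the replicate numbers in both sexes. The unigenes with a best hit outside the insects were high in the first library of each sex. Whether replicate numbers mark a shared batch was not tested. With 3 libraries per sex, the precision of a log2 difference of a member is given by its SE, and no counting interval was used.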

Additional observations from a re-analysis of the deposited data

Results flagged for a closer look

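The 147 unigenes that match the same words with a best hit outside the insects are not members and were kept out of the ranking, the shares and the counts given for the members. They held summed expected counts of 29296, 27022 and 27464 in female 1, 2 and 3 and of 28457, 22467 and 24268 in male 1, 2 and 3, or between 0.125% and 0.162% of all counts in a library. The series has no control library in which they should be absent. Mammals led the species of the best hits, with 29 unigenes for Homo sapiens and 28 for Mus musculus. The largest was an elongation factor 1-alpha 1 unigene with a best hit in Ovis aries musimon and 5499, 4912 and 4993 counts in females and 5133, 4082 and 4700 in males. A unigene named eIF4G2 variant with a best hit in Homo sapiens had 726, 709 and 706 counts in females and 752, 663 and 636 in males, without the sex difference of the insect unigene of that name. The 75 of them with a mean of at least 100 counts deviated from their own means by medians of 0.189, 0.039 and -0.055 in the female and 0.14, -0.152 and -0.158 in the male libraries on the log2 scale. They were high in female 1 and male 1 and low in male 2 and male 3, where most members were high. None of the 122 tested was called by edgeR, against 2.8% of all unigenes tested, and DESeq2 called none, against 4.47%. At an unadjusted p under 0.05 there were 2, against 12% of all unigenes tested. Their origin was not tested.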

How the results depend on the processing

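The number of members called between the sexes stayed at 1, eIF4G2, under every alternative that kept the call rule, including each library left out (1 to 1); it was 0 when a log2 difference of at least 1 was also required, where eIF4G2 stayed at 0.528. With the replicate block the count was also 1 and the calls over all unigenes went from 593 to 576, and the block changed no call among the members. Without 1 library the calls over all unigenes ran from 357 to 688. The median log2 difference of the members of -0.025 lay between -0.071 and 0.002 with 1 library left out, the end values coming without male 1 and without male 3. The median spread of 0.076 was 0.081 on the log2 TPM scale, 0.085 with DESeq2 size factors, 0.069 with library totals and 0.097 as geNorm M, and from 0.072 to 0.081 with 1 library left out. The difference in the share of counts, 0.0122 percentage points, ran from -0.0169 without male 1 to 0.034 without male 2, and was -0.000659 without female 2. The scaling on the 10 steadiest members and the ranking with 1 unigene per protein name were chosen after the data were seen and gave 1 call and a median spread of 0.076. The cause of these shifts was not tested. With 3 libraries per sex, the simulation recovered 84% of changes of a log2 of 1, and smaller changes were not simulated.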
